A study of Homo sapiens with 12 samples.

Results

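Rab GTPases, the proteins that load them with their lipid anchor, and a few of their partners were followed in parental and lenvatinib-resistant liver cancer cells. Genes were chosen by symbol: RAB followed by a number and, where present, further letters or digits, or RABL followed by a number, together with CHM, CHML, RABGGTA, RABGGTB, RABIF and RABEP1. The rule used no measured value. It found 50 of the 12365 gene symbols in the data: 32 of 8717 in Hep3B, 30 of 7533 in Huh7, and 12 in both. A further 23 coding genes of the reference that meet the rule are not analysed here.

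Hep3B and Huh7 are established lines from human hepatocellular carcinoma. Lenvatinib is an oral inhibitor of VEGF and FGF receptors and other receptor tyrosine kinases. RNA was sequenced from parental and from lenvatinib-resistant cells of each line, 4 groups of 3 libraries. All cells were grown in DMEM with 10% FBS. The labels give DMSO or lenvatinib as the treatment without assigning either to a library, so the presence of drug at harvest is unknown. They do not say how resistance was selected, whether a resistant line is a clone, or whether replicates were separate cultures. The p-values therefore measure the spread between these libraries, which may be technical.

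Rab proteins are small GTPases that act as switches on membranes. With GTP bound they recruit effectors that move, tether and fuse vesicles, and each Rab marks its own compartments. To sit on a membrane a Rab needs geranylgeranyl lipids, attached by the Rab geranylgeranyl transferase (RABGGTA and RABGGTB) to a Rab held by an escort protein, REP-1 (CHM) or REP-2 (CHML). Loss of CHM causes choroideremia, a degeneration of the retina, while other tissues are thought to manage with CHML. In hepatocytes Rabs serve lipoprotein and albumin secretion, bile canaliculus formation and receptor recycling.

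Promoter windows are shown for 4 members on which the results turn: CHM, which lost all reads in resistant Huh7, CHML, the other escort gene, RAB9B, read almost only in resistant cells, and RAB6B, which moved in opposite directions in the lines. Each runs 5′ to 3′ on the gene's strand, from 250 bases before to 50 after the outermost RefSeq start site. All lie on the minus strand of GRCh38.p14: CHM at chrX:86047509-86047808, CHML at chr1:241640320-241640619, RAB9B at chrX:103832208-103832507 and RAB6B at chr3:133895833-133896132. Capitals mark exact matches on either strand. The motifs searched were the GC box, with the letters GGGCGG, and the E-box that MYC and USF proteins read, with the letters CACGTG. The others were the CCAAT box, searched by the letters of its name, and the cyclic AMP response element, with the letters TGACGTCA. No match of one motif overlaps one of another in the windows shown.
CHM: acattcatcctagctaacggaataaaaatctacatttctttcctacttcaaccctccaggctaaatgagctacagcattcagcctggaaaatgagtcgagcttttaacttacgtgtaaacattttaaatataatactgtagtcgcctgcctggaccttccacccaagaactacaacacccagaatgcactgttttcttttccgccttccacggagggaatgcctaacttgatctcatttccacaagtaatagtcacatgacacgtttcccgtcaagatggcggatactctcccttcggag
CHML: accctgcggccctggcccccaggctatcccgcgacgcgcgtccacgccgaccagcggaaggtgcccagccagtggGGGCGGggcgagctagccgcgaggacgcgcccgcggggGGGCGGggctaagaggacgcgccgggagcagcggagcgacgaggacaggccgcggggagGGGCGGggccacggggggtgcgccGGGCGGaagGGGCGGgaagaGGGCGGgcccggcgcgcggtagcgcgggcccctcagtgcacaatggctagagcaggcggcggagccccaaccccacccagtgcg
RAB9B: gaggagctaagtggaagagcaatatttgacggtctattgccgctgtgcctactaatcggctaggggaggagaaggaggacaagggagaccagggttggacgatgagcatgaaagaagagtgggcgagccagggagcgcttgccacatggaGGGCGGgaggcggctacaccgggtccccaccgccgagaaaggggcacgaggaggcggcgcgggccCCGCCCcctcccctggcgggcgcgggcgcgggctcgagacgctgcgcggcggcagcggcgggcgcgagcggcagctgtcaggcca
RAB6B: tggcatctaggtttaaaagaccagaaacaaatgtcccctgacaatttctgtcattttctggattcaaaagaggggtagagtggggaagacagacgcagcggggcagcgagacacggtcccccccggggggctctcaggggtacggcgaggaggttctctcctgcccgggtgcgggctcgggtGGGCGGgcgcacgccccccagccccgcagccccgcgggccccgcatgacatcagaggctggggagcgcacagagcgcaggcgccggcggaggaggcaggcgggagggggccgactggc

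The CHM window held no match to any of the motifs and was 43.3% G and C. The CHML window was 79.3% G and C with 6 GC boxes. RAB9B had 2 GC boxes in a window of 69.0% G and C, and RAB6B had 1 in 67.7%. Among the 40 members with a window, 80.0% held a GC box, against 58.3% of 15842 coding genes. An E-box was present in 10.0% of members and 8.82% of coding genes, a CCAAT box in 22.5% and 36.4%, and the cyclic AMP element in 0% and 2.56%. Member windows had a median G and C content of 68%, against 62.7% over all coding genes, and the shares were not adjusted for it. These shares describe letters in the sequence, and binding was not measured.

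Levels below are scaled reads: the reads recovered from the deposited values, times 1 scaling value per library. Fold changes are log2(resistant over parental) of scaled reads + 1, given ± SE, and the test is limma with Benjamini-Hochberg adjustment over all entries of the line at 0.05. Reads per library over listed genes ran from 6184929 to 7475184 in Hep3B and from 11480608 to 14174202 in Huh7. Each Hep3B entry counts 1 RefSeq transcript, so genes with several transcripts are seen in part; 21 of the 32 members there have only 1. The Huh7 data hold only genes that had passed the authors' own test. Every gene in them was thus selected for a difference between the groups, and Rab genes that did not pass are not listed. A first principal component carried 78.8% of the total variance among Hep3B libraries. Its Huh7 counterpart carried 92.3%, but it was computed on genes already chosen for differing between the groups. That share is therefore no independent sign of a group difference.

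The liver identity of the lines was checked on 13 hepatocyte markers. In Hep3B 9 were listed, and 8 fell and 1 rose, with summed levels of 408260 to 413410 scaled reads in parental and 198472 to 202460 in resistant libraries. In Huh7 11 were listed, 6 higher and 5 lower, with sums of 526604 to 576186 and 610733 to 635839. None of the listed markers was at 0. Markers of other cells also moved. Fibroblast markers (4 of 6 listed in Hep3B, 3 of 6 in Huh7) summed to 616 to 693 and then 2224 to 2501 scaled reads in Hep3B, and to 4161 to 4350 and then 884 to 888 in Huh7. In Hep3B 2 of them rose and 2 fell: the mean of COL1A1 went from 24.9 to 1937 and that of LUM from 355 to 67.8. In Huh7 all 3 fell. Of 7 leukocyte markers 2 were listed in each line, LYZ and LAPTM5 in Hep3B and LYZ and PTPRC in Huh7. Their sums were 438 to 520 in parental and 108 to 121 in resistant Hep3B, and 6456 to 6674 and 5280 to 5460 in Huh7. LYZ fell in both lines, while LAPTM5 rose in Hep3B and PTPRC rose in Huh7. Endothelial markers (2 of 6 listed in Hep3B, 3 of 6 in Huh7) summed to 28.5 to 46.6 and 81.4 to 82.6 in Hep3B, and to 133 to 171 and 236 to 255 in Huh7. In Hep3B 1 of them rose and 1 did not pass, and in Huh7 1 rose and 2 fell. A sum therefore need not show a direction shared by the markers of a cell type. The listed markers mostly shared one for hepatocytes in Hep3B (8 of 9 fell) and for fibroblasts in Huh7 (all 3 fell). In the other sets they moved both ways, or, for endothelial markers in Hep3B, 1 did not pass. The part of these shifts in the Rab results was not tested, and in bulk RNA fewer cells of a kind and less RNA per cell cannot be told apart.

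The escort gene CHM was read in every parental Huh7 library and in no resistant one. Its levels were 86.2, 95.7 and 98.3 scaled reads in parental Huh7 and 0, 0 and 0 in resistant Huh7. The 296 parental reads against none make it at least 89.9-fold lower, set against a floor of 3 reads over the group, which covers counting error only (limma log2 fold change -6.56 ± 0.36, adjusted p = 6.15e-12). The groups do not overlap, and the difference held whichever library was left out. In the authors' deposited table its log2 fold change was -8.93. In Hep3B the same gene was at 586, 537 and 554 in parental and 604, 599 and 600.3 in resistant libraries. These groups do not overlap but lie close, and the change did not pass (0.11 ± 0.07, adjusted p = 0.257, for 1 of the 6 RefSeq transcripts of CHM), turning to -0.05 under median centring.

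Genes beside CHM on the X chromosome were also without reads in resistant Huh7. The 4 neighbouring entries in the Huh7 data, in chromosome order APOOL, ZNF711, POF1B and CHM, had 0 reads in all 3 resistant libraries. APOOL, which encodes a mitochondrial cristae protein, fell from 269 reads over the parental libraries and was at least 81.0-fold lower. POF1B, an actin-binding epithelial protein, fell from 56 reads (at least 17.1-fold) and the zinc finger gene ZNF711 from 20 reads (at least 5.97-fold). Across Huh7 as a whole 69 genes had 0 resistant reads, and 11 of them had a parental mean of at least 20 scaled reads, CHM and APOOL included. In Hep3B no entry had 0 resistant reads over its 3 libraries, but none had 0 parental reads either. In Huh7 44 genes had 0 parental reads. The Hep3B data may list only entries read in both groups, so they cannot show whether any gene lost all reads there.

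The nearest listed genes on either side kept their reads. TAF9B, a relative of the TFIID subunit TAF9 and the nearest listed gene on the APOOL side, kept 520 resistant reads against 907 (-0.66 ± 0.11). TSPAN6, a tetraspanin and the nearest on the CHM side, kept 5085 against 6767 (-0.27 ± 0.06). The reference places 33 coding genes between TAF9B and TSPAN6, of which the Huh7 data list 4, all of them at 0, so the stretch without reads is bounded only by these flanks. In Hep3B 10 of those 33 are listed. There APOOL had 1356 parental and 1420 resistant reads and did not pass (0.07 ± 0.08), and ZNF711 rose (0.60 ± 0.10). Of 20 genes around CHM that were set down as a list, 9 were listed in Hep3B, with 3 higher (SH3BGRL at 0.87 ± 0.11, PABPC5 at 1.83 ± 0.54 and ZNF711) and 6 that did not pass. DNA was not measured, and the cause was not tested.

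**Figure D1:**
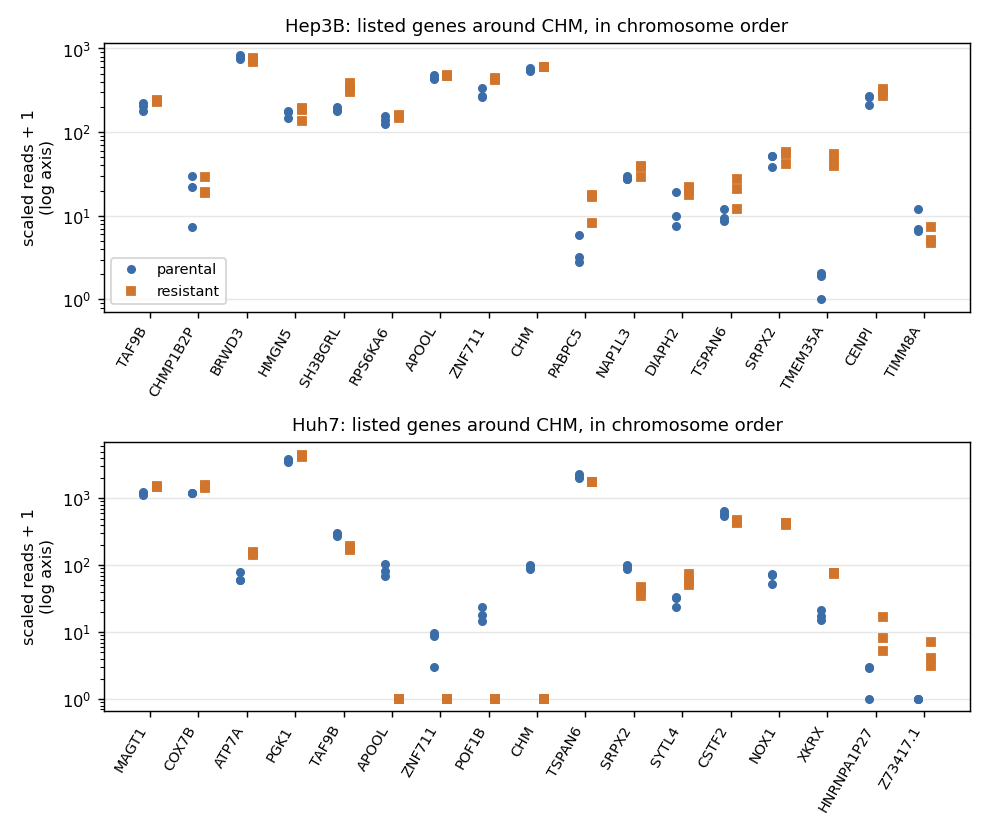
Scaled reads + 1 (log axis) in each library for CHM and the 8 listed genes on either side of it, in chromosome order, in Hep3B (top) and Huh7 (bottom). Circles are the 3 parental and squares the 3 resistant libraries; in resistant Huh7 APOOL, ZNF711, POF1B and CHM all sit at 0 reads, while TAF9B and TSPAN6 on either side do not.

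The other genes of Rab prenylation moved less. CHML, the other escort gene, was at 1236, 1298 and 1120 scaled reads in parental Hep3B and at 708, 705 and 721 in resistant Hep3B. All resistant libraries lay below all parental ones (-0.77 ± 0.07, adjusted p = 7.19e-09, for 1 of its 3 RefSeq transcripts). CHML is not listed in Huh7, so its response where CHM was lost is not analysed here. RABGGTB, the catalytic beta subunit of the transferase, was at 1110, 1144 and 1113 in parental Huh7 and 959, 859.9 and 813 in resistant Huh7. It fell without overlap (-0.36 ± 0.07, adjusted p = 0.000106). The alpha subunit gene RABGGTA was at 9.21, 23.0 and 18.8 in parental and 27.2, 15.3 and 13.6 in resistant Hep3B. Its groups overlap, and with 50 and 57 reads for 1 of its 2 transcripts a change was not detectable (0.15 ± 0.38, adjusted p = 0.770).

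RABIF, known as MSS4, a chaperone that holds nucleotide-free exocytic Rabs, was at 600.3, 589 and 588 in parental and 679, 695 and 643 in resistant Hep3B. The groups do not overlap and the rise passed narrowly (0.18 ± 0.07, adjusted p = 0.0431), but 11 of 18 alternatives lost it, and under median centring it was 0.02. RABEP1, or rabaptin-5, an effector that RAB5 recruits to early endosomes, was at 1335, 1255 and 1356 in parental and 1057, 961 and 986 in resistant Huh7. It fell without overlap (-0.39 ± 0.06, adjusted p = 1.50e-05). Among 10 genes of the wider isoprenoid and prenylation machinery, 6 were listed in Hep3B, with 0 higher, 2 lower (33.3%) and 4 that did not pass, and 4 in Huh7, with 2 higher and 2 lower. PTAR1, a gene related to the prenyltransferase alpha subunits, fell in Hep3B (-0.51 ± 0.07). FDPS, farnesyl diphosphate synthase, passed narrowly as lower, from a mean of 12.6 scaled reads to 5.48 (-1.36 ± 0.54, adjusted p = 0.0414). Its groups overlap, it rests on 38 and 16 reads for 1 of its 7 RefSeq transcripts, and in the authors' deposited table it did not pass (adjusted p = 0.108). In Huh7 FNTA, the alpha subunit shared by the other prenyltransferases (0.57 ± 0.07), and IDI1 of isoprenoid synthesis (0.56 ± 0.05) rose, and the carboxyl methyltransferase ICMT (-0.54 ± 0.05) and the protease RCE1 (-0.23 ± 0.06), which finish prenylated proteins, fell.

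Of the 32 Hep3B members 17 changed, or 53.1%, against 49.5% of all 8717 entries tested, so as a family they changed about as often as other genes. Higher were 11 (34.4%, against 27.6% of all entries) and lower 6 (18.8%, against 21.9%). The 15 that did not pass include RAB10, RAB14 and RAB8A. In 22 members (68.8%) the groups do not overlap, against 56.3% of all entries. The median log2 fold change was 0.10 over the members and 0.07 over all entries. Median centring shifts all Hep3B fold changes down, to a median of -0.09, and with it 8 members were higher and 10 lower. A change of at least 2-fold was called in 4 members (12.5%, against 15.4% of all entries): RAB9B, RAB20 and RAB6B up and RAB8B down.

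Rabs of the ER and Golgi gave 3 rises and 1 fall among 5 listed in Hep3B, where 27.6% of all entries rose and 21.9% fell. RAB6B, a Golgi Rab best known from neurons, was at 62.6, 63.6 and 78.3 scaled reads in parental and 282, 239 and 271 in resistant cells. Every resistant library lay above every parental one, and the log2 fold change was 1.94 ± 0.14 (adjusted p = 4.13e-10). RAB1B, which controls traffic from the ER to the Golgi, was at 11149, 11524 and 12018 in parental and 7107, 6843 and 6849 in resistant cells. It fell without overlap (-0.74 ± 0.04, adjusted p = 1.21e-11). RAB33B, a Golgi Rab that binds the autophagy protein ATG16L1, rose from a mean of 213 ± 26.0 (SD, n = 3) to 320.2 ± 8.54 (0.59 ± 0.11). RAB19, linked to the Golgi, was at 25.8, 37.3 and 26.7 in parental and 62.9, 46.8 and 39.7 in resistant cells. It passed (0.71 ± 0.25, adjusted p = 0.0251), but 7 of 18 alternatives lost it, and without resistant replicate 1 it was 0.53 (adjusted p = 0.150). RAB1A did not pass (0.06 ± 0.29), with 88 and 94 reads on 1 of its 2 transcripts.

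Endosomal Rabs moved both ways in Hep3B. RAB22A, which acts on early endosomes and in recycling, was at 394, 406 and 378 in parental and 635, 607 and 639 in resistant cells. It rose without overlap (0.67 ± 0.08, adjusted p = 4.14e-07). RAB11B, of the recycling endosome, rose from 2141 ± 52.0 to 3163 ± 99.3 (0.56 ± 0.05), while RAB14, which links the Golgi and endosomes, did not pass (-0.01 ± 0.05). RAB21, which guides integrin uptake, fell from 1908 ± 85.5 to 1319 ± 73.4 (-0.53 ± 0.06). RAB20, of endosomes and phagosomes, rested on few reads and, like RAB9B below, is given by library after its values were seen. It was at 0, 3.29 and 0.991 in parental and 23.5, 5.09 and 11.5 in resistant cells. Its groups do not overlap and it rose (2.59 ± 0.69, adjusted p = 0.00367), although without resistant replicate 1 it was 2.09 (adjusted p = 0.0535). RAB17, of polarised epithelial cells, did not pass (0.24 ± 0.27), nor did RAB31 (0.14 ± 0.10).

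Late endosomal Rabs included the largest rise among the Hep3B members by log2 fold change. RAB9B, a close relative of RAB9A, which returns receptors from late endosomes to the Golgi, was at 0, 0 and 0.991 in parental and 13.1, 18.3 and 14.6 in resistant cells; its values are given although its low level put it outside the naming rule, a choice made after they were seen. All resistant libraries lay above all parental ones. With 1 parental read and 46 resistant reads the ratio was 46.1, with an exact 95% counting interval of 7.87 to 1859 (limma 3.69 ± 0.62, adjusted p = 4.78e-05). The RAB9B entry counts 1 of its 3 RefSeq transcripts. RAB32, which serves lysosome-related organelles and mitochondria, was at 1469, 1474 and 1813 in parental and 3050.1, 2726 and 3323 in resistant cells. It rose without overlap (0.94 ± 0.09, adjusted p = 6.39e-06). RAB7A, the central Rab of late endosomes and lysosomes, fell a little, from 5965 ± 120.3 to 5356 ± 72.3 (-0.16 ± 0.04, adjusted p = 0.00543), a call lost in limma without a trend. RAB12 (-0.13 ± 0.09) and RAB36 (-0.53 ± 0.43) did not pass.

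Exocytic Rabs held the largest falls in Hep3B. RAB8B, which carries cargo from the Golgi to the plasma membrane, was at 2249, 2387 and 2268 in parental and 887, 877 and 895 in resistant cells. The groups lie far apart (-1.38 ± 0.06, adjusted p = 5.33e-14). Its paralog RAB8A, at 1748 ± 86.1 and 1861 ± 28.4, did not pass (0.09 ± 0.06, adjusted p = 0.186; -0.07 under median centring). RAB3B, of regulated secretion, was at 2360, 2511 and 2187 in parental and 1269, 1274 and 1136 in resistant cells. It fell without overlap (-0.94 ± 0.06, adjusted p = 1.42e-10), while RAB3D rose from 809 ± 48.7 to 991 ± 29.0 (0.29 ± 0.07), a call lost under median centring. RAB10, of polarised membrane delivery, just missed (-0.12 ± 0.05, adjusted p = 0.0520) and was called lower in 9 of 18 alternatives. RAB3A (-0.26 ± 0.37) and RAB27B (0.17 ± 0.44) had few reads and did not pass. RAB40B, a Rab with a SOCS box that joins a ubiquitin ligase, was at 80.1, 77.9 and 69.3 in parental and 134, 126 and 140.1 in resistant cells. It rose without overlap (0.81 ± 0.15, adjusted p = 0.000145), and RAB40A (-0.30 ± 0.35), RABL3 (0.03 ± 0.09) and RABL6 (-0.46 ± 0.23) did not pass.

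**Figure D2:**
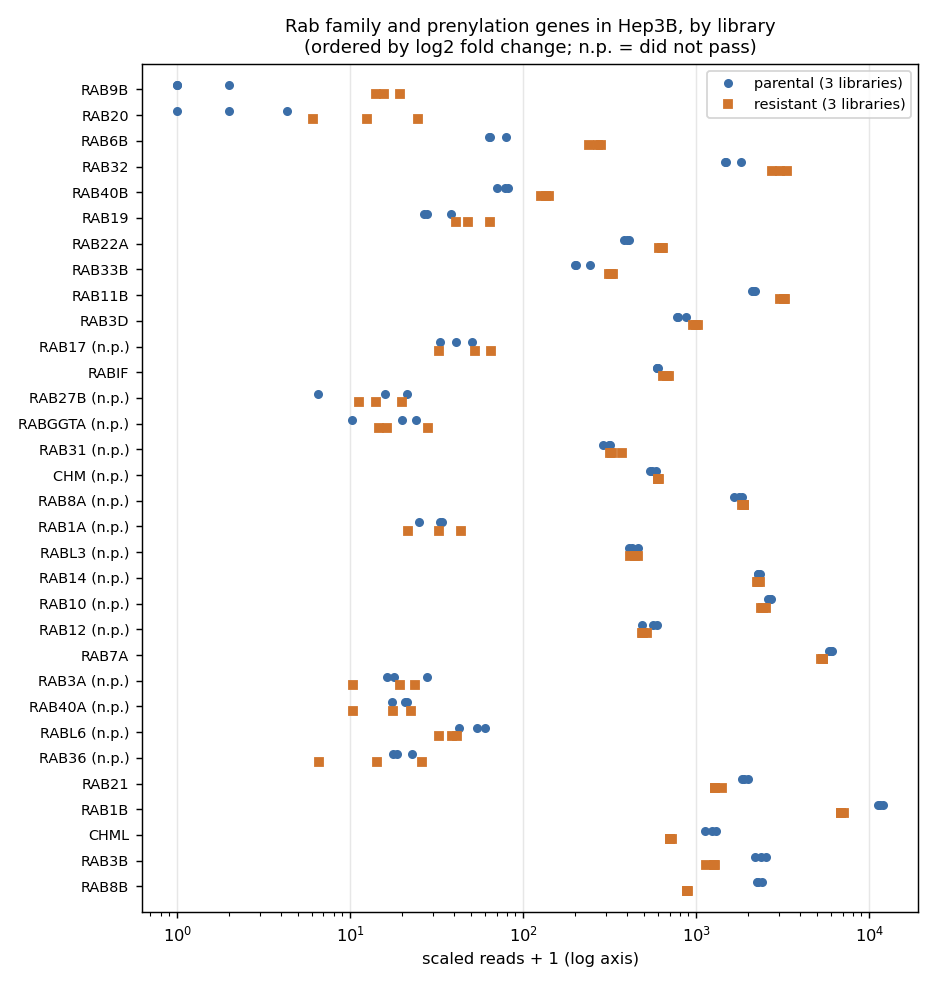
Scaled reads + 1 (log axis) of the 32 members listed in Hep3B, ordered by log2 fold change, with 3 parental (circles) and 3 resistant (squares) libraries each. RAB9B and RAB20 at the top rest on few reads, RAB6B stands clear of its parental libraries, and RAB8B, RAB3B and CHML at the bottom fall without overlap; n.p. marks the 15 members that did not pass.

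In Huh7 all 30 members passed, as did all genes tested there (100%), because of how the table was selected, so only sizes and directions inform. Higher were 13 (43.3%, against 48% of the genes) and lower 17 (56.7%, against 52%). The groups do not overlap in 29 members (96.7%, against 98.6%), RABL2A being the exception. The median log2 fold change was -0.28 over the members and -0.19 over all genes. Changes near 0 were largely not selected, so a Huh7 median mostly follows whether more genes rose or fell. A change of at least 2-fold was seen in 6 of 30 members, against 25.6% of the genes. These were CHM down, and RAB20, RAB9B, RAB39B, RAB38 and RAB37 up.

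Early endosomal Rabs parted in Huh7. RAB20 was at 3.92, 15.3 and 3.45 scaled reads in parental and 36.3, 40.9 and 48.4 in resistant cells. Every resistant library was above parental replicate 2, the highest of its group (2.59 ± 0.41, adjusted p = 1.09e-05; 3.19 without that replicate). The RAB5 genes drive the fusion of early endosomes. RAB5C was at 1084, 897 and 843 in parental and 582, 616 and 609.8 in resistant cells, and fell without overlap (-0.63 ± 0.08, adjusted p = 1.44e-06). RAB5A (0.26 ± 0.07) and RAB5B (0.31 ± 0.05) rose, from means of 1267 and 1997 to 1511 and 2484. RAB4A, of fast recycling, fell (-0.41 ± 0.07).

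Golgi Rabs also split between paralogs in Huh7. RAB2B, a Rab of ER to Golgi traffic, was at 393, 422 and 455 in parental and 239.7, 235 and 274 in resistant cells. It fell without overlap (-0.76 ± 0.10, adjusted p = 1.04e-06), while RAB2A, with the same role, rose from 2086 ± 115 to 2981 ± 24.3 (0.52 ± 0.05). RAB6A rose (0.50 ± 0.07) and RAB6B fell, from 177 ± 21.4 to 118 ± 4.37 (-0.58 ± 0.13). RAB39B, a neuronal Rab mutated in X-linked intellectual disability, was at 10.8, 10.2 and 12.1 in parental and 32.2, 39.9 and 25.8 in resistant cells. It rose without overlap on 35 and 94 reads (1.47 ± 0.29, adjusted p = 0.000146). RAB33B rose (0.39 ± 0.08), and RAB18, which sits on lipid droplets and the ER, fell (-0.52 ± 0.07), as did RAB43 (-0.46 ± 0.13).

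Secretory Rabs gave 2 rises and 3 falls in Huh7, where 48% of all genes were higher and 52% lower. RAB37, of secretory granules, was at 153, 166 and 142 in parental and 376, 348 and 439.8 in resistant cells. It rose without overlap (1.33 ± 0.11, adjusted p = 3.89e-09). RAB27A, needed for granule docking and exosome release, was at 599, 664 and 757 in parental and 411, 375 and 435 in resistant cells. It fell without overlap (-0.72 ± 0.09, adjusted p = 8.20e-07). RAB3B fell (-0.62 ± 0.06) and RAB3D rose (0.46 ± 0.12). RAB8B fell slightly (-0.20 ± 0.06), a call that DESeq2 did not keep (adjusted p = 0.0658).

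Late endosomal and ciliary members completed the Huh7 set. RAB9B rose from 4 parental to 42 resistant reads (2.54 ± 0.53), with the resistant libraries spread from 6.23 to 27.8 scaled reads, while RAB9A fell (-0.49 ± 0.09). RAB38, of melanosomes and related organelles, rose on 21 and 53 reads (1.34 ± 0.37). RAB7A (-0.27 ± 0.05), RAB32 (-0.37 ± 0.07) and RAB12 (-0.28 ± 0.10) fell, RAB12 losing its call without parental replicate 3 (-0.20, adjusted p = 0.0506) and in DESeq2 (adjusted p = 0.0762). RABL2A, a Rab-like protein of ciliary transport, was at 66.6, 39.7 and 32.8 in parental and 75.8, 102 and 64.9 in resistant cells. Its groups overlap, yet it passed (0.83 ± 0.24, adjusted p = 0.00325). RABL2B was at 303, 341 and 333 in parental and 522, 550.2 and 506 in resistant cells, without overlap (0.69 ± 0.09, adjusted p = 6.39e-07). These are near-identical copies between which counting could divide reads, so their separate values are uncertain. RABL6 fell (-0.46 ± 0.07).

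**Figure D3:**
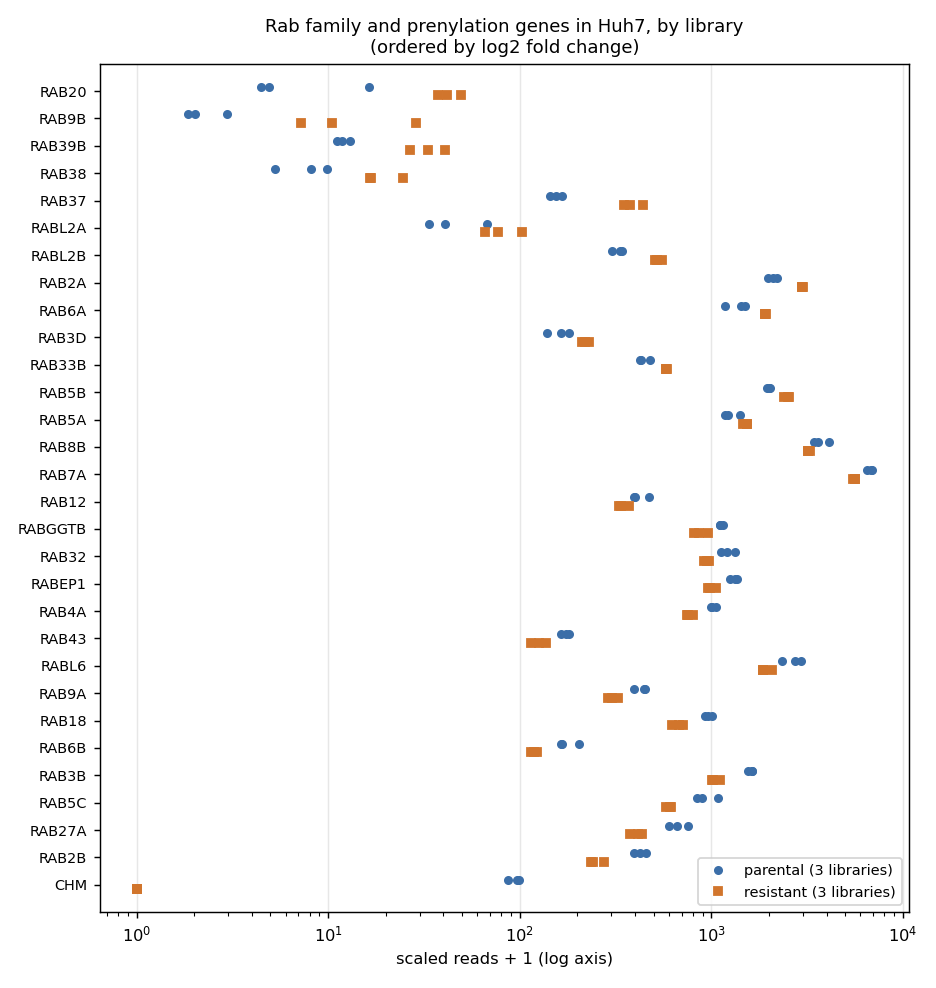
Scaled reads + 1 (log axis) of the 30 members listed in Huh7, ordered by log2 fold change, with 3 parental (circles) and 3 resistant (squares) libraries each. CHM at the bottom is at 0 reads in all resistant libraries, and RAB20, RAB9B, RAB39B and RAB38 at the top rise from low levels.

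The 12 shared members could be compared between the lines. Of these 5 differed in log2 fold change by the test of the difference itself, against 67.6% of the 3885 symbols in both tables. A symbol is shared only if it had passed the authors' test in Huh7. Both shares therefore rest on Huh7 changes selected to differ from 0, and no shared member could change in Hep3B alone. RAB6B rose in Hep3B and fell in Huh7, a difference (Huh7 minus Hep3B) of -2.52 ± 0.19. RAB32 did likewise, with a difference of -1.31 ± 0.12. CHM differed by -6.66 ± 0.37. RAB8B fell in both, more in Hep3B (1.17 ± 0.08), as did RAB3B (0.32 ± 0.09). In direction, 4 were higher in both lines (RAB20, RAB9B, RAB33B and RAB3D), 3 lower in both (RAB3B, RAB7A and RAB8B), 2 opposite (RAB6B and RAB32), and 3 changed in Huh7 but did not pass in Hep3B (CHM, RAB12 and RABL6). RABL6 had a log2 fold change of -0.46 in both lines. Its Hep3B entry rests on 154 parental and 110 resistant reads for 1 of its 3 RefSeq transcripts. For RAB20 the log2 fold change was 2.59 in each line, but the SE of the difference, 0.80, leaves a wide range, and for RAB9B the difference was -1.15 ± 0.82.

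**Figure D4:**
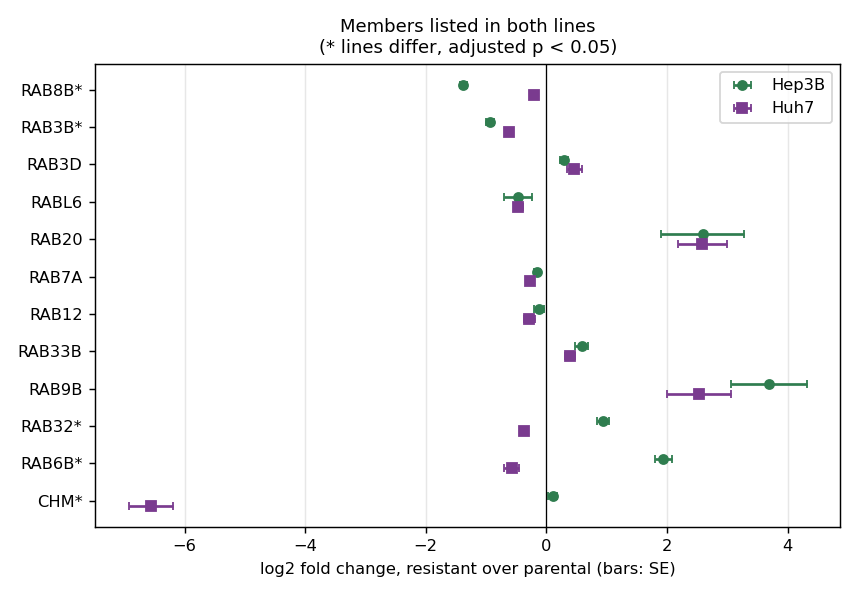
Log2 fold change, resistant over parental, with SE bars, of the 12 members listed in both lines, circles for Hep3B and squares for Huh7. RAB6B and RAB32 lie on opposite sides of 0, CHM lies near 0 in Hep3B and at -6.56 in Huh7, and stars mark the 5 members whose difference between lines passed.

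Neighbouring genes were examined beside each member, up to 5 tested genes on either side. In Huh7 19 of 30 members (63.3%) had the sign of their neighbours' median, against 71.4% of all genes, and in Hep3B 17 of 32 (53.1%), against 61.0%. All 10 neighbours of RAB2A rose in Huh7 (median 0.58, against 0.52 for RAB2A). All 10 neighbours of RAB2B, of RAB5C and of RABEP1 fell (medians -0.30, -0.35 and -0.56). Others went against their neighbours. RAB37 rose where 9 of 10 fell, RAB12 fell where 9 of 10 rose, and RAB20 rose where 7 of 10 fell. In Hep3B 8 of 10 neighbours of RAB17 rose while RAB17 itself did not pass. These counts describe position, and gene dosage was not measured.

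Regulators and effectors of Rabs were taken from 6 lists of 190 genes. In Hep3B 90 were listed, 30 higher, 15 lower and 45 that did not pass, with a median of 0.08 against 0.07 for all entries. The share called, 50%, was close to the 49.5% of all entries, with 33.3% higher against 27.6% and 16.7% lower against 21.9%. In Huh7 86 were listed, 46 higher and 40 lower (53.5% higher, against 48% of all genes), with a median of 0.21 against -0.19. With changes near 0 largely not selected, this median and the Huh7 list medians below mostly follow those counts and are no separate measure of size. The lists hold few listed genes each, and the counts below are to be read beside these shares of all entries. The list of recycling factors holds GDI genes, whose proteins extract Rabs from membranes, and PRA1 with PRA1-like and YIPF membrane proteins. In Hep3B, where no GDI gene was listed, 4 were higher (66.7%), 0 lower and 2 did not pass (median 0.45). In Huh7 1 was higher, GDI2, and 4 were lower (80% lower, against 52% of all genes, median -0.68). The summed level there was 5741.5 to 6345 scaled reads in parental and 6728 to 6782 in resistant libraries. Rab recycling itself was not measured. RABAC1, the prenylated Rab acceptor PRA1, rose in Hep3B (0.97 ± 0.13) and fell in Huh7 (-1.14 ± 0.22). The related PRAF2 went from 70.7 to 124 in Hep3B (0.82 ± 0.18) and from 68.4 to 42.6 in Huh7 (-0.68 ± 0.20). ARL6IP5, another of that family, rose in Hep3B (0.57 ± 0.07), and YIPF6, a Golgi membrane protein, fell in Huh7 (-1.02 ± 0.07). GDI2, a factor that extracts Rabs from membranes, rose in Huh7 (0.66 ± 0.06). The difference between lines was not tested for these lists.

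Exchange factors, which load Rabs with GTP, were 7 higher, 7 lower (24.1% each) and 15 that did not pass in Hep3B (median -0.01), and 12 higher (48%) and 13 lower in Huh7 (median -0.18). DENND2A, an exchange factor for RAB9, rose in Hep3B from 22.7 ± 6.35 to 205 ± 22.8 scaled reads (3.15 ± 0.21), and DENND6B rose from 18.2 ± 3.18 to 83.3 ± 7.50 (2.14 ± 0.24). RIN1, an exchange factor for RAB5, fell there (-1.03 ± 0.26). In Huh7 TRAPPC8, of the TRAPP complex (0.96 ± 0.08), and DENND1A, which acts on RAB35 (0.74 ± 0.07), rose, and RINL fell (-0.71 ± 0.18). GTPase-activating proteins, which switch Rabs off, were 8 higher (50%), 2 lower (12.5%) and 6 that did not pass in Hep3B (median 0.22), and 10 higher (71.4%) and 4 lower in Huh7 (median 0.27). TBC1D30 fell in Hep3B (-1.41 ± 0.15), and TBC1D9 (0.72 ± 0.08) and TBC1D8 (0.69 ± 0.06) rose. In Huh7 TBC1D2, which acts on RAB7 (1.51 ± 0.14), and SGSM1 (1.25 ± 0.19) rose, and TBC1D12 fell (-0.72 ± 0.09).

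Effectors were 10 higher (37.0%), 2 lower (7.41%) and 15 that did not pass in Hep3B (median 0.17), and 15 higher (50%) and 15 lower in Huh7 (median 0.00). UNC13D, or Munc13-4, the RAB27 effector that primes granules for release, fell in Huh7 from 253 ± 32.1 to 11.1 ± 7.04 scaled reads (-4.54 ± 0.30). In Hep3B it rose from 37.5 ± 6.85 to 79.9 ± 2.21 (1.09 ± 0.20). MICALL2, which binds RAB8 and RAB13 at cell junctions, rose in Hep3B from 197 ± 13.2 to 684 ± 16.3 (1.79 ± 0.09), and so did RAB11FIP1, a RAB11 effector (0.99 ± 0.17). MYO5B, the motor of recycling endosomes whose loss causes microvillus inclusion disease, rose in Huh7 from 307 ± 14 to 910.1 ± 29.3 (1.57 ± 0.08), and SYTL5, a RAB27 effector, fell (-1.18 ± 0.09). The list of tethering complexes and retromer also holds the lipid kinase gene PIK3C3 and its partner PIK3R4. Its genes were 1 higher (16.7%), 2 lower (33.3%) and 3 that did not pass in Hep3B, and 6 higher (75%) and 2 lower in Huh7. VPS33A (-0.89 ± 0.07) and PIK3R4 (-0.37 ± 0.06) fell and VPS35 of retromer rose (0.42 ± 0.06) in Hep3B. In Huh7 PIK3C3, the lipid kinase that makes the endosomal phosphoinositide PI3P (0.74 ± 0.09), and its partner PIK3R4 (0.54 ± 0.07) rose, and VPS16 fell (-0.57 ± 0.09).

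**Figure D5:**
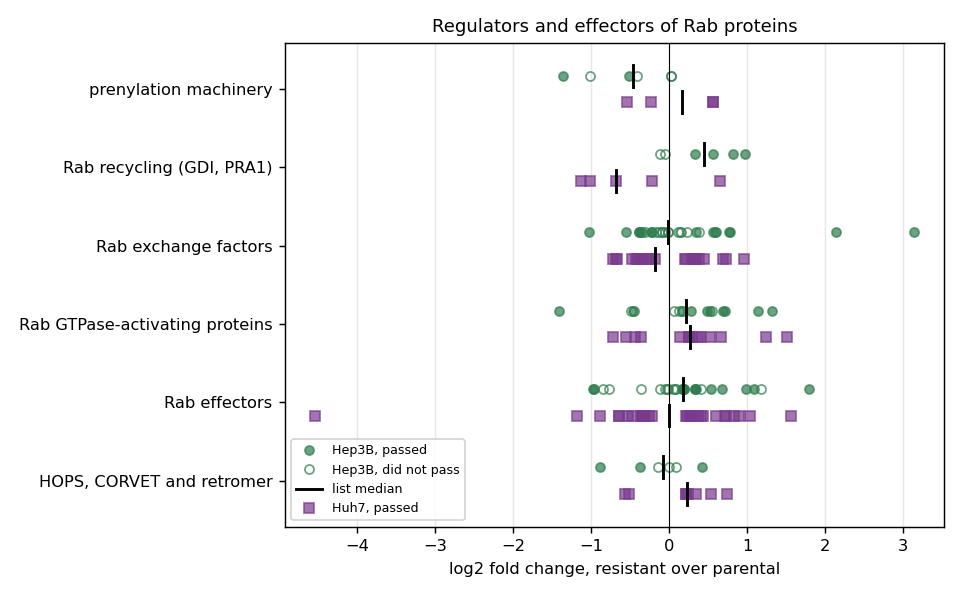
Log2 fold change, resistant over parental, of the listed genes in 6 groups of Rab regulators and effectors, circles for Hep3B (open where the change did not pass) and squares for Huh7, with the list median as a bar. UNC13D stands far to the left in Huh7 at -4.54, and the medians of the recycling factors lie at 0.45 in Hep3B and -0.68 in Huh7.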

How the data were processed

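RNA-seq libraries of Hep3B and Huh7 cells, 3 per group, were analysed from a deposited table for each line. Reads were placed on GRCh37, per the submitters' processing notes. For the aligner, counter, strand setting and annotation release, nothing is given in the sources used here. The deposited Hep3B signal values proved to be 2 times the square root of scaled (reads + 0.375) per transcript, and the deposited Huh7 signal values scaled reads per gene; undoing this gave whole reads for 100% of values within 0.05. Both tables also hold the authors' log2 fold change and adjusted p-value, per the file headers. In Hep3B 1 entry without a gene name, at most 0.000171% of a library's reads, was left out.

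The deposited values were neither counts nor FPKM, so the test set down for other normalized units was used. In each line separately, limma 3.58.1 in R 4.3.3, with trend and robust variances, was applied to log2 of scaled reads with 1 added. An entry needed 1 scaled read or more in 3 libraries, or in 2 where a replicate was left out. Tests were two-sided and adjusted after Benjamini and Hochberg, with a threshold of 0.05. On simulated data the test was checked to recover set changes. The line difference was divided by its standard error, adjusted over 3885 symbols. Alternatives were edgeR 4.0.16 and DESeq2 1.42.0 on recovered reads, other scalings, filters and pseudocounts, a replicate block and leaving out replicates. The counting interval for groups with 1 to 3 reads and the filter of 2 libraries where a replicate is left out were chosen after seeing the data.

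The members and lists were chosen with earlier results of these data known. Values per library are given for the prenylation genes, RABIF, RABEP1 and the 8 called Rab genes with the largest change and a mean of at least 20 scaled reads in the higher group, and from each list the 3 largest such changes are named; FDPS, RCE1, GDI2, RAB20 in Hep3B and RAB9B were named after their values were seen. Tables were normalized separately, so levels are not compared between lines. The reference gene table (GRCh38.p14) gave transcript numbers and gene order, and matched 98.2% of Hep3B and 96.5% of Huh7 entries; promoter sequences are RefSeq's. Of the lists, 1 gene is not reported here and was left out of their counts. Intervals and floors cover counting error only.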

Additional observations from a re-analysis of the deposited data

Results flagged for a closer look

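In 5 members the change differed between the lines by the test of the difference of log2 fold changes (Huh7 minus Hep3B), adjusted over 3885 symbols. All these symbols had passed the authors' test in Huh7, so their Huh7 changes were selected to differ from 0. For CHM the difference was -6.66 (adjusted p = 8.12e-19), with all 3 resistant Huh7 libraries at 0 reads. RAB6B differed by -2.52 (adjusted p = 1.64e-14) and RAB32 by -1.31 (adjusted p = 2.56e-11), each higher in all 3 resistant Hep3B libraries and lower in all 3 resistant Huh7 libraries. RAB8B differed by 1.17 (adjusted p = 9.92e-16) and RAB3B by 0.32 (adjusted p = 0.00154), both lower in every resistant library of each line. The Hep3B entries of CHM and RAB6B count 1 of several transcripts. No explanation of these differences was tested.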

How the results depend on the processing

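No called change or line difference of a member changed sign under any alternative run. Over the members' log2 fold changes and line differences under all alternatives, 1228 values kept their side of the threshold, 24 lost a call and 13 gained one. Of the 1228, 43 changed sign, all of them uncalled in both fits: 25 log2 fold changes of 10 Hep3B members (CHM, RAB14, RAB1A, RAB27B, RAB31, RAB3A, RAB40A, RAB8A, RABGGTA and RABL3) and 18 line differences of 5 members. In Hep3B 12 of 17 called members held under every alternative run, and RABIF, RAB19, RAB20, RAB3D and RAB7A did not. In Huh7 28 of 30 held, all but RAB12 and RAB8B. Those 30 were listed only because they had passed the authors' test on the same libraries. Huh7 calls were thus likely to persist in other fits from the outset, and 28 of 30 says little about robustness beside 12 of 17. The Hep3B call of RAB10 was gained in 9 alternatives, and median centring, which moved the Hep3B median from 0.07 to -0.09, added RAB12, RAB14 and RABL6 as lower. Restricted to genes with 1 RefSeq transcript, 2634 Hep3B entries were called, since only 4710 were tested, and 15 members. Leaving out 1 replicate gave 3783 to 4128 called entries and 15 to 17 members in Hep3B, and 7428 to 7498 genes and 29 to 30 members in Huh7. Members that differ between lines stayed at 5 whichever replicate was left out, and were 6 under median centring, with RAB3D added. Fitted changes of genes with few reads moved with the pseudocount and tool: 1.42 to 3.24 for RAB20 and 1.93 to 5.49 for RAB9B in Hep3B, 1.48 to 3.60 for RAB9B and -9.55 to -4.30 for CHM in Huh7.

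With the replicate number as a replicate block, 4881 Hep3B entries (4317 without) and 18 members (17 without, RAB10 added) were called, and 7531 genes and 30 members in Huh7. Correlations of same-numbered libraries were 0.06, 0.17 and 0.10 in Hep3B and 0.02, 0.02 and 0.08 in Huh7, so the numbers were not taken as pairs. Every Hep3B library correlated best with its own number, a hint from the data only, and parental Huh7 replicate 1 did not.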
